A study of Mus musculus with 12 samples.

Results

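T, Eomes and Pax7 are genes for transcription factors of early development that are also transcribed in undifferentiated spermatogonia of the mouse testis. They were taken by symbol from the deposited tables, and all 3 were present once in each of the 12 RNA-seq libraries, among 22549 gene symbols. The cells were cultured spermatogonial stem cells (mSSC) from testes of wild-type DBA/C57 F1 pups at 5 to 7 days of age, in 6 groups of 2 replicate libraries. A treatment experiment plated mSSC on laminin overnight and exposed them for 24 h to vehicle, to retinoic acid (RA) at 100 nM, or to the same RA dose plus cycloheximide (CHX), an inhibitor of translation, at 0.25 mg/ml. An induction experiment set untreated mSSC beside GFP-marked mSSC grown on pup Sertoli cells that mitomycin had inactivated. Its day 3 group was sorted for GFP and c-KIT and is called induced differentiating spermatogonia (idSG). Its day 6 group was sorted for GFP without c-KIT and is called induced spermatocytes (iSC). No group received CHX without RA.

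T, also called Brachyury, is the founding member of the T-box family of DNA-binding factors and is needed for mesoderm and notochord. Eomes is another T-box factor, which acts in the trophoblast, the primitive streak and the brain. Pax7 is a paired-box factor best known as the marker of muscle satellite cells. In the mouse testis each has been described in a minority of undifferentiated spermatogonia that carry GFRA1, the co-receptor for GDNF, and T has been described downstream of the GDNF-responsive factor ETV5. RA starts the differentiation of spermatogonia. In bulk libraries fewer expressing cells and less RNA per cell cannot be told apart, and rarity itself was not measured.

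In GRCm38 (GENCODE M21), T lies on the plus strand of chromosome 17 from 8434423 to 8442496, Eomes on the plus strand of chromosome 9 from 118478212 to 118486132, and Pax7 on the minus strand of chromosome 4 from 139737062 to 139833528. An antisense gene, Gm33460 (118485559 to 118489099), overlaps the end of Eomes. It is not a row of the deposited tables, and whether the counting used strand is not given, so reads in that overlap cannot be assigned to one of the genes. The promoter windows of the 3 genes are shown because the genes fell together with RA and CHX. Each runs 5′ to 3′ along the gene's own strand, from 250 bases before the annotated start to 50 bases after it, as in RefSeq on GRCm38.p6, with the bases from the start onward in capitals. The windows lie at chr17:8434173-8434472 for T, chr9:118477939-118478238 for Eomes and chr4:139832919-139833218 for Pax7. The RefSeq starts of Eomes and Pax7 differ from the GENCODE starts. The Pax7 window lies wholly inside the GENCODE span of the gene, so it may hold transcribed bases and miss a promoter at the GENCODE start.
T promoter: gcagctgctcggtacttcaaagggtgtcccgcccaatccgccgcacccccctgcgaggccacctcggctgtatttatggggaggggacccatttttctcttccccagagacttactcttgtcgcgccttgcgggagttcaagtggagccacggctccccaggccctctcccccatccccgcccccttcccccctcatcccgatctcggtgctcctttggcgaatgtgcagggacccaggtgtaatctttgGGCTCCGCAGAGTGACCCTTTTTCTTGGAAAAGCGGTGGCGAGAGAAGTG
Eomes promoter: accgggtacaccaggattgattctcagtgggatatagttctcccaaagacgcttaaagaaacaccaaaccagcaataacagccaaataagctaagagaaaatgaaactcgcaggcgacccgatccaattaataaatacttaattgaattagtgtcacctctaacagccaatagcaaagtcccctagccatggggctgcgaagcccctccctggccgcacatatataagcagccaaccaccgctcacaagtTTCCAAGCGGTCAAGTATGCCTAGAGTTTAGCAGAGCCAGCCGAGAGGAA
Pax7 promoter: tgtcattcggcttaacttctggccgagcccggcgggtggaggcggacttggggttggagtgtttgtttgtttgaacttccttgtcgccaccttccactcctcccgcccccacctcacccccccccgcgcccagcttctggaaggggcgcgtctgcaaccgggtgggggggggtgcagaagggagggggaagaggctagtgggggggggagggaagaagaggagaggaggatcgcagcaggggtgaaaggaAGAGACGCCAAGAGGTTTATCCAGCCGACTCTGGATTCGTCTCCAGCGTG
The T and Pax7 windows were G or C at 61.7% and 63.7% of bases and the Eomes window at 47.3%, against a median of 52.7% over 32851 promoter windows (interquartile range 45.7% to 61.7%). Motifs were searched on both strands as exact letters, and none was found in any of the 3 windows. Variants that differ from these letters were not searched, so they may be present. They were the RA receptor hexamer AGGTCA, which 16.3% of all windows hold, and its direct repeats spaced by 2 or by 5 bases, which 0.00913% hold in each case. The others were the T-box motif TCACACCT (1.28% of windows), the ETS motif CCGGAAGT (3.89%) and the TCF/LEF motif CTTTGATC (0.938%). The direct repeats contain the hexamer, so a window that holds a repeat also holds the hexamer, but not the reverse.

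All 3 genes were low in mSSC but measurable. FPKM, the deposited unit, counts fragments per kilobase of transcript, scaled to the number mapped, so levels can be set side by side between genes. With vehicle, T stood at 1.86 and 1.67 FPKM in replicates 1 and 2, Eomes at 3.06 and 2.73 FPKM, and Pax7 at 5.36 and 4.61 FPKM. Pax7 was thus the highest and T the lowest in each vehicle library. By mean FPKM with vehicle, T lay above 49.9% of gene symbols, Eomes above 53.9% and Pax7 above 59.1%. Gfra1 stood at 80.2 ± 6.84 FPKM in the same libraries, and every mean ± SD here is over n = 2 libraries. In untreated mSSC of the induction experiment, T stood at 0.641 and 1.40 FPKM, Eomes at 1.15 and 2.01 FPKM, and Pax7 at 2.41 and 0.739 FPKM. T and Eomes were thus higher in replicate 2 and Pax7 in replicate 1, and Pax7 was the lowest of the 3 in replicate 2. The 12 markers of peritubular and fibroblast cells summed to 128 FPKM in mSSC replicate 1 and 270.5 FPKM in replicate 2, with 9 of 12 higher in replicate 2, and their part in the spread was not tested.

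**Figure D1:**
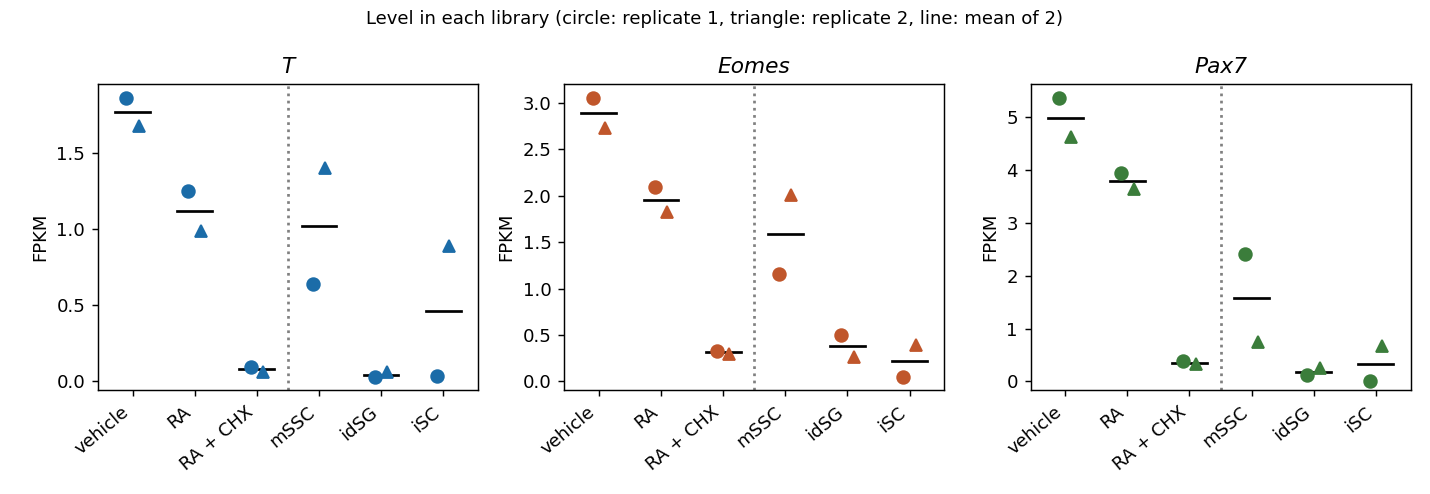
FPKM of T, Eomes and Pax7 (vertical axes, each with its own scale) in the 12 libraries by group. Circles are replicate 1, triangles replicate 2 and lines the mean of 2, and the dotted line parts the treatment from the induction experiment. All 3 genes are highest with vehicle and close to 0 with RA and CHX, and T in iSC stands at 0.0331 FPKM in one library and 0.890 FPKM in the other.

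By group mean, T ran from vehicle (1.77 ± 0.132 FPKM) through RA (1.12 ± 0.183), mSSC (1.02 ± 0.535), iSC (0.462 ± 0.606) and RA with CHX (0.0794 ± 0.0210) to idSG (0.0450 ± 0.0240). Library values overlapped between RA and mSSC, between mSSC and iSC, between iSC and RA with CHX, and between iSC and idSG. Eomes ran from vehicle (2.89 ± 0.234 FPKM) through RA (1.96 ± 0.195), mSSC (1.58 ± 0.607), idSG (0.381 ± 0.172) and RA with CHX (0.314 ± 0.0196) to iSC (0.220 ± 0.237). Its values overlapped between RA and mSSC and among the last 3 groups of that order. Pax7 ran from vehicle (4.99 ± 0.529 FPKM) through RA (3.79 ± 0.214), mSSC (1.58 ± 1.18), RA with CHX (0.357 ± 0.0435) and iSC (0.334 ± 0.472) to idSG (0.183 ± 0.0973). Its values overlapped between RA with CHX and iSC and between iSC and idSG. Vehicle was the highest group and RA the next for each gene, although levels set across the experiments may have been scaled separately and no test was made across them.

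With RA for 24 h, Eomes and Pax7 fell moderately and T stood lower by a like share. T stood at 1.25 and 0.988 FPKM with RA, Eomes at 2.10 and 1.82 FPKM, and Pax7 at 3.94 and 3.63 FPKM. In each case both RA libraries lay below both vehicle libraries, and the share of all genes that did so was not counted. The RA mean was 63.2% of the vehicle mean for T, 67.7% for Eomes and 75.9% for Pax7. Tests were made with limma on log2(FPKM + 1), for genes whose mean in the 6 libraries of their experiment reached 1 FPKM, and a gene was called where its Benjamini-Hochberg adjusted p fell below 0.05. On this scale the change of a low gene is understated. Both tested members were called lower, where 29.9% of the 12339 genes tested were. Eomes had a log2 change of -0.40 ± 0.08 SE (limma adjusted p = 0.00644) and Pax7 one of -0.32 ± 0.08 SE (limma adjusted p = 0.0155). T averaged 0.988 FPKM and so missed the filter. Without a filter, T was called lower at -0.39 ± 0.08 SE (limma adjusted p = 0.0144), where 19.3% of 19286 genes were.

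The RA calls of T and Pax7 depended on single libraries. With the filter, Eomes stayed called without any one of the 6 libraries, at limma adjusted p up to 0.0403. Without the filter, its call was lost without vehicle replicate 1 (0.0704) or RA replicate 2 (0.0717). The filtered call of Pax7 was lost without vehicle replicate 1 (limma adjusted p = 0.0864) or RA replicate 2 (0.0836). Its unfiltered call held in 1 of 6 such fits, without vehicle replicate 2 (0.0446), and limma adjusted p reached 0.169 in the other 5. With the spread estimated from all 12 libraries, neither Pax7 (0.576) nor Eomes (0.252) was called. The unfiltered call of T was lost in 5 of 6 fits that left out a library, with limma adjusted p from 0.0525 to 0.0855 in those, and held at 0.0254 without RA replicate 1.

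With RA and CHX together, all 3 genes fell further. By mean FPKM there, T lay above 29.7% of gene symbols, Eomes above 38.5% and Pax7 above 39.3%. T stood at 0.0943 and 0.0645 FPKM, Eomes at 0.327 and 0.300 FPKM, and Pax7 at 0.388 and 0.326 FPKM. These values lie far below every vehicle and RA library, which was likewise not counted over all genes. The means were 4.50% of the vehicle mean for T, 10.8% for Eomes and 7.15% for Pax7. Eomes fell by 1.57 ± 0.08 SE on the log2(FPKM + 1) scale (limma adjusted p = 2.32e-06) and Pax7 fell by 2.14 ± 0.08 SE (limma adjusted p = 6.19e-07), where 43.2% of genes tested were called lower. T fell by 1.36 ± 0.08 SE without a filter (limma adjusted p = 6.57e-05, with 32.0% of 19286 genes called lower). The order of the levels with vehicle, Pax7 over Eomes over T, also held in both libraries with RA and CHX. The ratio of the Pax7 mean to the Eomes mean was 1.14 there and 1.73 with vehicle, and that of Eomes to T was 3.95 and 1.64.

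Set against RA alone, RA with CHX left 7.11% of the T level, 16.0% of Eomes and 9.43% of Pax7. Eomes fell by 1.17 ± 0.08 SE in log2 (limma adjusted p = 1.16e-05) and Pax7 fell by 1.82 ± 0.08 SE (limma adjusted p = 1.65e-06), where 42.5% of genes tested were called lower. T fell by 0.97 ± 0.08 SE without a filter (limma adjusted p = 0.000238, where 32.0% of genes were called lower). All calls of the 3 genes with RA and CHX, against vehicle and against RA, held in each of the 6 unfiltered fits without a library, at limma adjusted p up to 0.00731. These comparisons share libraries, so their changes are not independent. What CHX does without RA was not measured. Markers of other cells moved in these libraries too. The 11 Sertoli markers in the tables summed to 85.0 and 81.3 FPKM with vehicle and 49.2 and 44.5 FPKM with RA. With RA and CHX they summed to 39.7 and 41.7 FPKM. Trf alone made up 78.7 and 75.3 FPKM, 42.5 and 37.8 FPKM and 28.2 and 29.6 FPKM in this order, so the sums mostly show Trf. Of 4 Sertoli markers tested, 1 rose and 2 fell with RA and 2 rose and 2 fell with RA and CHX. The 6 endothelial markers summed to 9.10 and 8.64 FPKM, 6.20 and 6.57 FPKM and 3.43 and 3.64 FPKM in the same order. Of 3 endothelial markers tested, 2 fell with RA and 3 with RA and CHX. Peritubular and macrophage markers did not share this direction. Peritubular and fibroblast markers summed to 132 and 109 FPKM, 128 and 107 FPKM and 165.5 and 161 FPKM in the same order. Of 11 tested, 1 rose and 1 fell with RA, and 5 rose and 3 fell with RA and CHX. Macrophage markers summed to 5.44 and 5.63 FPKM, 4.44 and 4.80 FPKM and 8.63 and 8.45 FPKM. The 1 tested rose with RA and CHX and was not called with RA. Against vehicle, 22.8% of all genes tested rose and 29.9% fell with RA, and 36.1% rose and 43.2% fell with RA and CHX. The part of these other cells in the falls of the 3 genes was not tested.

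**Figure D2:**
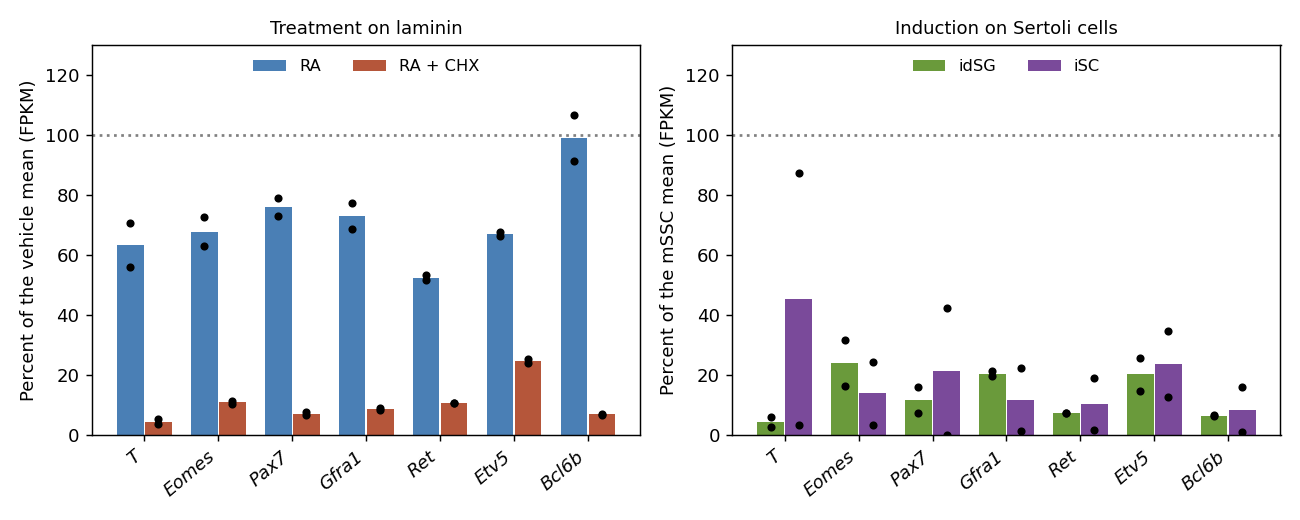
Group means of T, Eomes, Pax7 and 4 genes of GDNF signalling as a percent of the vehicle mean (left) and of the mSSC mean (right), in FPKM. Bars are means of 2 libraries, dots are libraries and the dotted line marks 100%. RA left 52.4% to 98.8% of the vehicle level of these genes and RA with CHX 4.50% to 24.6%.

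GDNF signalling genes were set beside the 3 members. Gfra1, the co-receptor, was at 73.0% of its vehicle level with RA (limma adjusted p = 0.00258) and at 8.74% with RA and CHX (7.84e-08). Ret, the receptor kinase, was at 52.4% (limma adjusted p = 7.45e-06) and 10.7% (7.61e-09). Etv5, the factor described upstream of T, was at 66.8% (limma adjusted p = 6.35e-05) and 24.6% (4.68e-08). Bcl6b, a repressor gene that responds to GDNF, stood at 129 ± 14.1 FPKM with vehicle and 128 ± 13.9 FPKM with RA (limma adjusted p = 0.885), a difference whose sign turned after quantile normalization without a call. It fell to 8.89 ± 0.141 FPKM with RA and CHX (limma adjusted p = 9.27e-08). Stra8, an RA target needed for meiosis, rose from 23.6 to 561 FPKM with RA (limma adjusted p = 5.73e-08), and Kit, the receptor gene of differentiating spermatogonia, rose from 3.53 to 13.8 FPKM (2.38e-05). Of 24 listed genes of single spermatogonia and stem cells, which exclude the 3 members, 22 were tested with RA. Of these 0 rose and 20 fell, at a median log2 change of -0.68 against -0.02 over all genes tested. Of all genes tested, 22.8% were called higher and 29.9% lower. With the spread of all 12 libraries, 4 of the 22 were called. With RA and CHX, 0 of the 22 rose and 21 fell at a median of -2.39, against -0.05 over all genes. There 36.1% of all genes were called higher and 43.2% lower. After quantile normalization 1 of the 22, Utf1, a gene of pluripotent cells, was called higher there (limma adjusted p = 0.00685).

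Among other T-box genes, Mga, which encodes a subunit of a Polycomb repressor complex, was the highest at 29.0 ± 0.446 FPKM with vehicle, and it rose to 58.9 ± 1.33 FPKM with RA and CHX (limma adjusted p = 5.43e-07). With RA, Mga stood at 26.7 ± 0.966 FPKM, which was called lower (limma adjusted p = 0.0372) but not after quantile normalization (0.351). Tbx6, a factor of paraxial mesoderm, stood at 1.72, 1.95 and 1.84 FPKM in vehicle, RA and RA with CHX, with no call as deposited. After quantile normalization it was called higher with RA and CHX than with vehicle (limma adjusted p = 0.0301). Of the 17 T-box genes, 8 reached a group mean of 1 FPKM, and the highest group mean of the other 9 was 0.679 FPKM. Of the 9 Pax genes only Pax7 and Pax8 reached it, and the highest group mean of the other 7 was 0.170 FPKM. Pax8, a factor of kidney and thyroid, rose from 1.38 ± 0.145 to 2.08 ± 0.0368 FPKM with RA (limma adjusted p = 0.00481), so the Pax genes that could be tested were called in opposite directions. Of the 3 tested T-box genes (Eomes, Mga and Tbx6), 2 were called lower and 0 higher with RA, and with RA and CHX 1 was called higher and 1 lower. Among all genes tested, 22.8% were called higher and 29.9% lower with RA, and 36.1% higher and 43.2% lower with RA and CHX.

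**Figure D3:**
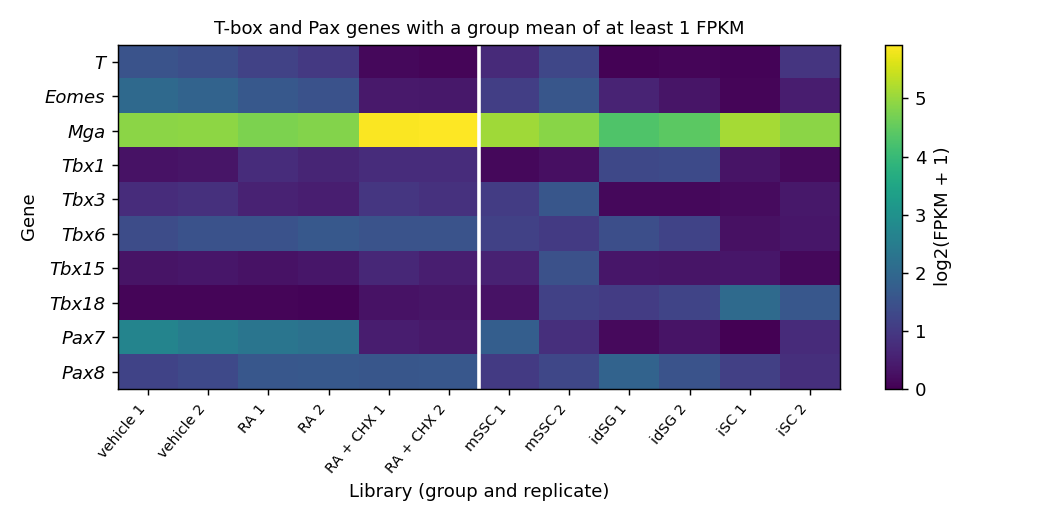
Levels of the T-box and Pax genes with a group mean of at least 1 FPKM (rows) in the 12 libraries (columns), as log2(FPKM + 1) by colour. The white line parts the experiments. Mga is high in every library and highest with RA and CHX, at a mean of 58.9 FPKM, whereas T, Eomes and Pax7 are lowest there within the treatment experiment.

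In muscle, PAX7 acts with other myogenic genes, and these were mostly near 0. Pax3, Myf5, Myf6 and Myod1, which specify muscle cells, did not exceed 0.175 FPKM in any library, and Myf5 was listed at 0 in 11 of 12. Of 20 listed muscle stem and muscle genes, 6 were tested with RA, of which 1 rose and 3 fell at a median log2 change of -0.28, against 22.8% higher, 29.9% lower and a median of -0.02 over all genes. The one that rose, the embryonic myosin gene Myh3, was not called after quantile normalization (limma adjusted p = 0.0838). With RA and CHX, 0 rose and 5 fell at a median of -1.11, against 36.1%, 43.2% and -0.05 over all genes. The most abundant were Itga7, a laminin-binding integrin gene, and Cdh15, a cadherin gene. Cdh15 fell from 9.60 ± 0.300 to 7.33 ± 0.413 FPKM with RA (limma adjusted p = 0.00336) and to 4.57 ± 0.269 FPKM with RA and CHX (7.61e-06). Itga7 stood at 4.63 ± 0.584 FPKM with vehicle and 4.74 ± 0.144 FPKM with RA (limma adjusted p = 0.786) and fell to 1.30 ± 0.137 FPKM with RA and CHX (8.18e-06).

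Genes that act with T and Eomes in the primitive streak were low as well. Of 23 listed, 22 were in the tables, 10 reached a group mean of 1 FPKM, and 5 were tested with RA, of which 0 rose and 4 fell at a median of -0.57, beside the 22.8% of all genes that rose and 29.9% that fell. With RA and CHX, 1 rose and 3 fell at a median of -0.57, beside 36.1% and 43.2% of all genes. The 2 most abundant over all libraries were Gata4 and Gata6, which Sertoli cells also express, and neither exceeded 0.306 FPKM in any mSSC or treatment library. Of 11 target genes of Wnt, a pathway that switches on T in the embryo, 7 were tested, of which 1 rose and 3 fell with RA and 3 rose and 3 fell with RA and CHX. As shares, 14.3% rose and 42.9% fell with RA and 42.9% rose and 42.9% fell with RA and CHX. Over all genes tested these shares were 22.8% and 29.9%, and 36.1% and 43.2%. Ccnd1, a cell-cycle gene, fell from 49.3 to 36.4 FPKM with RA (limma adjusted p = 0.0169) and to 12.7 FPKM with RA and CHX (4.98e-06). Tcf7, a gene for a Wnt-responsive factor, was called lower with RA at 83.2 against 92.5 FPKM (limma adjusted p = 0.00893), which was lost after quantile normalization (0.630). Of 9 genes of differentiation and meiotic entry, 6 rose and 1 fell with RA at a median of 0.45, and 6 rose and 2 fell with RA and CHX at a median of 1.20. Sycp3, of the synaptonemal complex, rose from 65.1 to 89.1 FPKM with RA (limma adjusted p = 0.00199).

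During induction the 3 genes were low in idSG. T stood at 0.0280 and 0.0619 FPKM in idSG, Eomes at 0.502 and 0.259 FPKM, and Pax7 at 0.114 and 0.252 FPKM. Every idSG library lay below both mSSC libraries for each gene, and the share of all genes that did so was not counted. The idSG mean was 4.41% of the mSSC mean for T, 24.0% for Eomes and 11.6% for Pax7. None averaged 1 FPKM over the 6 induction libraries, so tests exist only without a filter, and by limma 0 of 3 were called, where 6.17% of 19045 genes were called lower. The log2 changes were -0.92 ± 0.32 SE for T (limma adjusted p = 0.108), -0.89 ± 0.22 SE for Eomes (0.0517) and -1.05 ± 0.38 SE for Pax7 (0.122). The unadjusted limma p was 0.0311, 0.00864 and 0.0379 in this order. These values lie under 0.05 but make no call, and the share of all genes under it was not counted. Eomes was called after quantile normalization (limma adjusted p = 0.0282), a combination with no filter that was chosen after seeing the data.

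The T values of the induction experiment come down to few fragments. The commonest ratio between libraries, over low genes, gave the depth of each library relative to mSSC replicate 1, at 84.3% to 99.4%. After this scaling the 6 values of T lay within 0.1 of 23, 47, 1, 2, 1 and 30 times a common step of 0.0279 FPKM, in the order mSSC, idSG and iSC with replicate 1 before 2. If 1 step is 1 fragment, idSG held 3 fragments of T against 70 in mSSC. The depth-corrected level in idSG was then 4.38% of mSSC, with an exact 95% interval of 0.882% to 13.3% that covers counting error only. No such step was found for Eomes, Pax7 or the treatment libraries, so the 0 of Pax7 in iSC replicate 1 carries no known limit.

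The 2 iSC libraries differed from each other in all 3 genes. In iSC, T stood at 0.0331 and 0.890 FPKM in replicates 1 and 2, Eomes at 0.0519 and 0.388 FPKM, and Pax7 at 0 and 0.668 FPKM. Replicate 2 was higher for each gene, and its T value lay between the 2 mSSC libraries. By steps, T in replicate 1 was 3.28% of mSSC (exact 95% interval 0.0819% to 18.9%) and in replicate 2 it was 88.3% (55.6% to 137%), counting error only. Of the 24 stem cell genes, 22 were higher in replicate 2, and their FPKM summed to 84.2 and 278 in replicates 1 and 2, against 944 and 864 in mSSC and 199 and 187 in idSG. Gfra1 stood at 1.23 and 21.7 FPKM, Ret at 1.91 and 20.3 FPKM, and Nanos2, the gene of an RNA-binding stem cell factor, at 0.0494 and 4.62 FPKM. Shisa6 alone was higher in replicate 1, at 8.32 against 5.49 FPKM, and Pdx1 was listed at 0 in both. The iSC gate took cells without c-KIT, and Kit itself stood at 2.15 ± 0.376 FPKM in mSSC, 85.6 ± 27.9 FPKM in idSG and 6.89 ± 4.04 FPKM in iSC. The part of the gate in the iSC values was not tested.

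**Figure D4:**
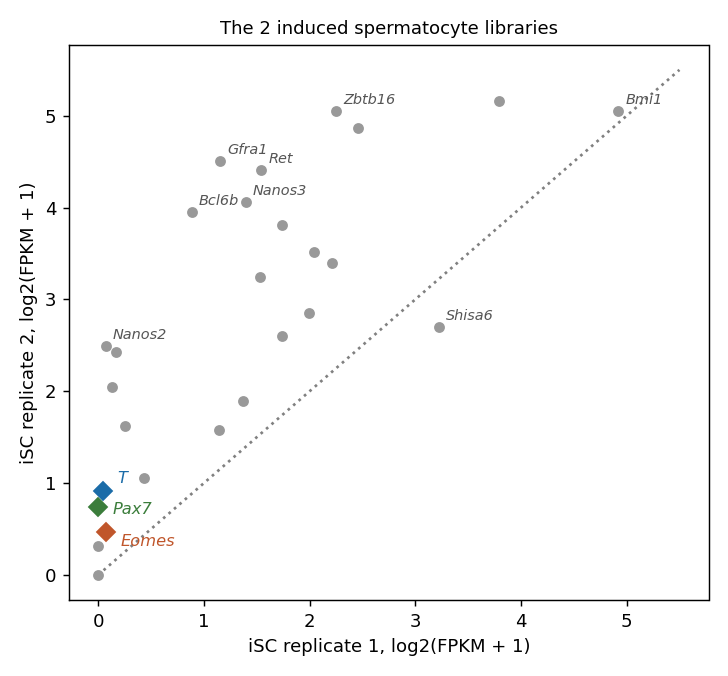
Level in iSC replicate 2 (vertical) against iSC replicate 1 (horizontal), both as log2(FPKM + 1), for T, Eomes and Pax7 (diamonds) and the 24 stem cell genes (grey). The dotted line marks equal levels, and 22 of 24 grey points and all 3 diamonds lie above it.

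Against mSSC, the iSC mean was 45.3% for T, 13.9% for Eomes and 21.2% for Pax7. Without a filter, Eomes was called lower at -1.08 ± 0.22 SE (limma adjusted p = 0.0183), where 16.7% of 19045 genes were. T at -0.51 ± 0.32 SE (limma adjusted p = 0.278) and Pax7 at -0.92 ± 0.38 SE (0.122) were not called. The Eomes call held at limma adjusted p = 0.0493 without iSC replicate 2 and was lost without any one of the other 5 libraries, at 0.0528 to 0.111. For T the log2 change was -0.94 without iSC replicate 2 and -0.07 without iSC replicate 1, and it was called in neither.

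Against idSG, none of the 3 genes was called in iSC by limma (0 of 3 without a filter, where 3.27% of 19045 genes were called in either direction). The log2 changes were 0.42 ± 0.32 SE for T (limma adjusted p = 0.466), -0.19 ± 0.22 SE for Eomes (0.644) and 0.13 ± 0.38 SE for Pax7 (0.874). At unadjusted limma p, 0 of 3 passed 0.05, the lowest being 0.243 for T. Each sign turned without one iSC library, for T to -0.02 and Pax7 to -0.24 without replicate 2, and for Eomes to 0.01 without replicate 1.

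The stem cell list, tested with 23 of its 24 genes in the induction experiment, had 0 genes called higher and 15 lower in idSG at a median log2 change of -2.22, against 0.05 over all 12626 genes tested, of which 17.9% were called higher and 10.7% lower. The count was 20 without either iSC library, and 5, 6, 9 and 5 without mSSC replicate 1, mSSC replicate 2, idSG replicate 1 and idSG replicate 2. In iSC against mSSC, 1 was higher (Shisa6) and 19 lower at a median of -2.21, against -0.03 over all genes, of which 26.2% were called higher and 25.0% lower. The calls in both directions came to 13 without mSSC replicate 1 and 12 without mSSC replicate 2. In iSC against idSG, 1 was higher and 1 lower, where 4.46% and 6.75% of all genes were. There 9 were called without iSC replicate 2, of which 1 was higher. Without iSC replicate 1, 4 were called there, and without any mSSC or idSG library 0. Etv5 fell from 100.2 ± 12.2 to 20.2 ± 7.97 FPKM in idSG (limma adjusted p = 0.0127), Ret fell from 107 ± 3.90 to 7.77 ± 0.0294 FPKM (0.0178), and Bcl6b fell from 91.2 ± 40.3 to 5.90 ± 0.346 FPKM (0.0236). Gfra1 stood at 98.0 ± 22.5 and 20.0 ± 1.28 FPKM (limma adjusted p = 0.115).

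Other T-box genes did not share one pattern in induction. Tbx3, a factor of limb, heart and mammary gland, stood at 1.08 and 2.00 FPKM in mSSC and 0.0962 and 0.0944 FPKM in idSG and missed the filter of the test. Tbx15, a factor of skeleton and muscle, stood at 0.487 and 1.77 FPKM in mSSC and 0.276 and 0.271 FPKM in idSG. Tbx1, a factor of the pharynx and heart, stood at 0.0981 and 0.174 FPKM in mSSC and 1.44 and 1.52 FPKM in idSG, the opposite order from T. Tbx18, a factor of mesenchyme and heart, stood at 0.229 and 1.22 FPKM in mSSC and was called higher in iSC at 2.60 ± 0.802 FPKM (limma adjusted p = 0.0294), a call that quantile normalization ended (0.0810). Tbx6 stood at 1.12 ± 0.148 FPKM in mSSC and 0.246 ± 0.0624 FPKM in iSC. Mga fell from 30.6 ± 3.23 to 19.8 ± 1.41 FPKM in idSG (limma adjusted p = 0.0259). Pax8 stood at 1.22, 2.26 and 0.965 FPKM in mSSC, idSG and iSC with no call.

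Sertoli and some Leydig and peritubular markers were higher in the sorted induction libraries than in mSSC, and endothelial markers were not. The 11 Sertoli markers in the tables summed to 60.5 and 59.4 FPKM in mSSC, to 501 and 1261 FPKM in idSG and to 1634 and 2701 FPKM in iSC. Trf made up 54.1 and 50.8 FPKM of this in mSSC and was called in neither sorted group against mSSC. Clu, another of these markers, made up 292 and 743 FPKM in idSG and 1212 and 2111 FPKM in iSC. In idSG 7 of 9 tested Sertoli markers rose and 0 fell, and in iSC against mSSC 8 rose and 0 fell. Among all genes tested, 17.9% rose and 10.7% fell in idSG, and 26.2% rose and 25.0% fell in iSC against mSSC. Fshr, the hormone receptor gene of Sertoli cells, did not exceed 0.185 FPKM in any library. The peritubular and fibroblast markers summed to 649 and 908 FPKM in idSG and 1300.1 and 1499.8 FPKM in iSC, of which Vim, an intermediate filament gene of many cell types, made up 373 and 662 FPKM and 604 and 971 FPKM. Of 11 tested, 3 rose and 3 fell in idSG at a median log2 change of -0.15, and 5 rose and 2 fell in iSC against mSSC at a median of 0.87. Vim, Acta2 and Tagln, of the cytoskeleton and smooth muscle, rose in idSG, and the receptor genes Pdgfra and Pdgfrb and the matrix gene Lum fell. The 7 Leydig markers summed to 41.8 to 167 FPKM in the sorted libraries against 2.67 and 2.44 FPKM in mSSC. Star, of cholesterol import, made up 33.6 and 70.6 FPKM of this in idSG, and the steroid enzyme gene Cyp17a1 and the receptor gene Lhcgr did not exceed 0.134 FPKM in any library. The 6 macrophage markers summed to 15.1 and 27.8 FPKM in mSSC, 28.6 and 8.11 FPKM in idSG and 15.9 and 15.7 FPKM in iSC, with no common direction. The 6 endothelial markers summed to 5.06 and 3.90 FPKM in mSSC and were lower in both sorted groups, at 3.18 and 2.32 FPKM in idSG and 2.43 and 2.15 FPKM in iSC, where the 1 tested was not called. The germ cell marker Ddx4, an RNA helicase gene, stood at 164 and 159 FPKM in mSSC, 192 and 145 FPKM in idSG and 145 and 148 FPKM in iSC. The 8 germ cell markers summed to 889 to 1331 FPKM in the sorted libraries and 1239.5 and 1201 FPKM in mSSC, and Dazl, an RNA-binding protein gene, was the highest of them in each of these libraries. One by one they were less even, since 0 rose and 2 fell in idSG at a median of -0.46 and 1 rose and 5 fell in iSC against mSSC at a median of -1.12. Gfra1, Zbtb16 and Sall4 of this list also stand in the stem cell list. The part of these other cells in the levels of T, Eomes and Pax7 was not tested.

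In idSG 3 of 6 tested primitive streak genes rose and 1 fell, and Gata4 at 31.5 ± 16.7 FPKM and Gata6 at 16.0 ± 5.15 FPKM rose beside the Sertoli markers (limma adjusted p = 0.000661 and 0.000661). Among 5 muscle genes tested in idSG 0 rose and 0 fell by limma, although Cdh15 and Six4, a homeobox gene, were called lower after quantile normalization (limma adjusted p = 0.0338 and 0.0394). In iSC against mSSC 2 fell, among them Cdh15, from 6.96 ± 2.85 to 1.41 ± 0.846 FPKM (limma adjusted p = 0.00622). Of 7 Wnt targets tested, 1 rose in idSG and 3 fell in iSC against mSSC, among them Tcf7 from 81.9 ± 8.42 to 27.1 ± 7.78 FPKM (limma adjusted p = 0.00201). Of 9 genes of differentiation and meiotic entry, 4 rose and 0 fell in idSG and 5 rose and 1 fell in iSC against mSSC. Beside these lists, 17.9% of all genes tested rose and 10.7% fell in idSG. In iSC against mSSC 26.2% of all genes rose and 25.0% fell.

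Across the 12 libraries, after centring within each experiment, log2(FPKM + 1) of T and Eomes had a Pearson r of 0.916, of Eomes and Pax7 0.878 and of T and Pax7 0.854. Within the 6 treatment libraries r was 0.988 to 0.999, and within the 6 induction libraries 0.621 to 0.790. These libraries fall into the study's groups, so r describes likeness only. Among 11814 genes that averaged 1 FPKM in both experiments, the most like T were Rasl11a (r = 0.980), a RAS-like GTPase gene, Cyp2u1 (0.978), a cytochrome P450 gene, and B4galt3 (0.972), a galactosyltransferase gene. Rasl11a stood at 38.3 and 35.0 FPKM with vehicle, 3.81 and 3.62 FPKM with RA and CHX, and 9.21 and 31.8 FPKM in iSC, so its iSC libraries stood apart in the same direction. The most like Eomes were Snn (0.982), Nsdhl (0.981), of cholesterol synthesis, and Acss1 (0.978), a mitochondrial acetyl-CoA synthetase gene. The most like Pax7 were Tmc6 (0.978), Slc16a13 (0.977) and Optn (0.976), the gene of an autophagy receptor. Optn stood at 47.4 and 25.8 FPKM in mSSC replicates 1 and 2, the same order as Pax7 and the opposite of T. Rasl11a and Optn were picked by r over these same libraries, so their shared replicate orders follow from that choice.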

How the data were processed

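The authors deposited FPKM, one table of gene symbols and values per library, made with TopHat2 2.0.6 and Cuffdiff on mm9, per the submitters' processing notes. The Cuffdiff version, annotation and scaling were not given in the sources used here. FPKM summed to 459580.0 to 540064 per library, and the absolute depth is unknown. One vehicle table repeats 25 lines, none of a member, which were counted once. R 4.3.3 ran limma 3.58.1, with jsonlite 2.0.0 to read labels, and Python 3.11.15 ran pandas 2.3.3, numpy 2.4.6, scipy 1.17.1 and matplotlib 3.10.9. Each experiment had its own limma model of log2(FPKM + 1) on group, moderated by eBayes with a trend (3 residual degrees of freedom), and p-values were adjusted over every gene that averaged 1 FPKM. Unfiltered fits kept genes above 0, and limma offset zero variances. The labels used here do not say that replicates were separate cultures, so the p-values cover only the spread among these libraries, which may be technical. Same-numbered replicates were not treated as pairs (r of their differences -0.0250 to 0.0918).

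Named genes were the members, T-box and Pax genes with a group mean of 1 FPKM or more, the 2 most abundant genes of each other list, Gfra1, Ret, Etv5, Bcl6b, Kit and Stra8, and the 3 genes most correlated with each member. Nanos2, Shisa6, Pdx1, Pax3, Myf5, Myf6, Myod1, Myh3, Fshr, Trf, Ddx4, Utf1, Vim, Acta2, Tagln, Pdgfra, Pdgfrb, Lum, Star, Cyp17a1, Lhcgr, Dazl, Zbtb16 and Six4 were named after their values were seen. Sall4 was named for standing in both the germ cell and the stem cell list, and Clu for its part in the Sertoli sums. Members and lists were chosen with earlier results of these data known. Other settings were a pseudocount of 0.1 or 0.5, no filter, a filter at 5 FPKM, median-ratio or quantile scaling, a replicate block, eBayes without trend, all 12 libraries or only 2 groups in the fit, the highest copy of a symbol, and each library left out. Pairs of no filter with another setting were added after seeing the data. Promoters came from RefSeq for GRCm38.p6, where all 3 members matched by symbol, and no mm9 coordinate was used.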

Additional observations from a re-analysis of the deposited data

How the results depend on the processing

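Of 288 values of T, Eomes and Pax7 under the planned settings, 285 kept their direction, and of 162 under those added after seeing the data 159 did; the exceptions were iSC against idSG with an iSC library left out. The pseudocount moved sizes, since it sets how far low genes can change. At 0.1 the log2 change of T was -0.62 with RA, -3.38 and -2.76 with RA and CHX against vehicle and RA, -2.87 in idSG, 1.33 in iSC against idSG and -1.54 against mSSC. Eomes then stood at -1.81, -0.77 and -2.58 in the induction comparisons and Pax7 at -2.41 in idSG and -2.39 in iSC against mSSC. Without a filter at that pseudocount, Pax7 with RA was -0.39 and not called (limma adjusted p = 0.0670). At 0.5, T was -1.97 and -1.48 with RA and CHX and -1.43 in idSG, and Eomes -1.54 in iSC against mSSC. No filter gave calls to T at -0.39, -1.36 and -0.97 and to Eomes in iSC against mSSC at -1.08. With quantile normalization these were -0.41, -1.32, -0.91 and -1.32, and Eomes in idSG, at -1.13, was also called.

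The fit on all 12 libraries kept the RA changes of Eomes (-0.40) and Pax7 (-0.32) but called neither. It called 510 genes with RA against 6503 otherwise, 6290 against 9788 and 5858 against 9573 with RA and CHX, 6562 against 3613 in idSG and 5272 against 1415 in iSC against idSG, and the cause was not tested. The last count was 623 without a filter and 151 from the 2 groups alone. With the replicate block it was 911, and the unfiltered calls of T (-0.39, -1.36 and -0.97) and of Eomes in iSC against mSSC (-1.08) stood with that block, which changed no other call of a member.

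With one library left out, genes called ranged from 942 to 4199 in idSG, 10 to 1557 in iSC against idSG and 3442 to 6302 in iSC against mSSC. Log2 changes with RA ranged over -0.48 to -0.30 for T, -0.46 to -0.33 for Eomes and -0.41 to -0.23 for Pax7. T ranged over -1.41 to -1.31 and -1.06 to -0.88 with RA and CHX, over -1.20 to -0.65 in idSG, -0.02 to 0.86 in iSC against idSG and -0.94 to -0.07 in iSC against mSSC. Eomes ranged over -1.13 to -0.65, -0.39 to 0.01 and -1.32 to -0.83 and Pax7 over -1.53 to -0.56, -0.24 to 0.50 and -1.40 to -0.43 in those comparisons. A filter at 5 FPKM gave no member a value. Quantile scaling moved the share of higher among called genes from 43.3% to 55.4% with RA and from 62.7% to 49.7% in idSG, and median-ratio scaling from 39.8% to 53.1% in iSC against idSG.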
